A study of Macaca fascicularis with 6 samples.

Results

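The chemokines CXCL9, CXCL10 and CXCL11 with their receptor CXCR3, and the chemokine CXCL12 with its receptors CXCR4 and ACKR3, were followed across the cell types of the cynomolgus monkey lung. These 7 genes were taken by symbol out of the 28623 genes listed for every library, 21095 of which carry a symbol, and each symbol stood in 1 row (CXCL9, ENSMFAG00000039917; CXCL10, ENSMFAG00000038088; CXCL11, ENSMFAG00000045313; CXCR3, ENSMFAG00000031295; CXCL12, ENSMFAG00000039735; CXCR4, ENSMFAG00000037063; ACKR3, ENSMFAG00000029542). CXCL11, CXCL10 and CXCL9 follow each other in the order of the gene list, and also in the RefSeq annotation of another assembly of this species, T2T-MFA8v1.1.

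CXCL9, CXCL10 and CXCL11 are secreted chemokines best known as genes induced by interferons, and they draw activated T cells and NK cells that carry CXCR3. CXCL12 is made mainly by fibroblasts and other stromal cells in most tissues, and its receptor CXCR4 helps to hold leukocytes and progenitors near that source. ACKR3 binds CXCL12 and CXCL11 and takes them up without classical G protein signalling, and DPP4 is a surface protease that trims CXCL12 and the CXCR3 ligands.

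Lung libraries came from 6 male cynomolgus monkeys (Macaca fascicularis) aged 3 to 5 years, with 1 library per monkey. The 3 monkeys of the asthma group (replicates 8, 10 and 11) were sensitized by injection of Ascaris suum antigen in adjuvant under the skin and later challenged with the antigen through the nose, whereas the 3 controls (replicates 1, 2 and 3) received saline. All monkeys had been skin tested before the experiment and were not sensitized, so the model is an induced allergy to a worm antigen. Lung pieces of both groups were digested with enzymes, red cells were lysed and dead cells were removed, and the cells were then captured in droplets, where each RNA molecule receives a unique molecular identifier (UMI). Cells that do not survive the digestion are not represented.

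Of 35133 barcodes, 24235 passed the study's stated thresholds on genes, UMIs and mitochondrial share, 11441 of the control group and 12794 of the asthma group. Controls 1, 2 and 3 held 34526867, 24593874 and 27453752 UMIs in these cells, and asthma 8, 10 and 11 held 30173065, 32347260 and 25388639. The median cell had between 3835 and 5048.5 UMIs depending on the library. The libraries shared 75 barcode sequences among kept cells. Levels are given as UMIs per 1000000 UMIs of a library's cells of a type (CPM), as mean ± SD over libraries with at least 10 such cells, and a level of 1 gene is not set against that of another because UMI capture differs between genes.

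The cells were clustered without the 7 genes and named from marker genes, so names end in -like and may differ from those of the study. Named classes held 10139 T and NK-like, 3068 macrophage-like, 2310 stromal-like, 1770 monocyte-like, 1645 granulocyte-like, 916 epithelial-like, 873 B-like, 536 dendritic-like, 497 MC-like, 92 mast-like and 27 plasma-like cells, while 2362 cells stayed unnamed. MC-like refers to the study's mesenchymal cells and had MSLN and UPK3B, which are markers of mesothelium, among its leading genes. At least 2-fold higher levels than in all other cells were seen for 11 of 11 macrophage markers (APOE, 15192 CPM), 11 of 11 T and NK markers (CCL5, 3507 CPM), 12 of 13 stromal markers (DCN, 12802 CPM), 8 of 8 granulocyte markers (S100A9, 14479 CPM) and 9 of 9 B markers (MS4A1, 2404 CPM). The dendritic-like name rested on 7 of 12 markers and the monocyte-like name on 5 of 8. Among subtypes, the nonclassical monocyte-like name rested on 3 of 5 markers and the interstitial macrophage-like name on 3 of 7. Depth per cell differed widely between classes, from a median of 1005 UMIs in granulocyte-like to 19602 in macrophage-like cells, with 3659 in T and NK-like, 3337 in stromal-like and 12595 in dendritic-like cells. The classes were also unequally filled, with stromal-like cells making up 3.43%, 3.91% and 9.69% of control cells and 9.04%, 7.36% and 23.4% of asthma cells. Asthma 11 stood apart, with the largest shares of stromal-like and monocyte-like cells (19.4%) and the smallest share of T and NK-like cells (26.3%, against 42.0% to 47.6% in the other libraries).

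**Figure D1:**
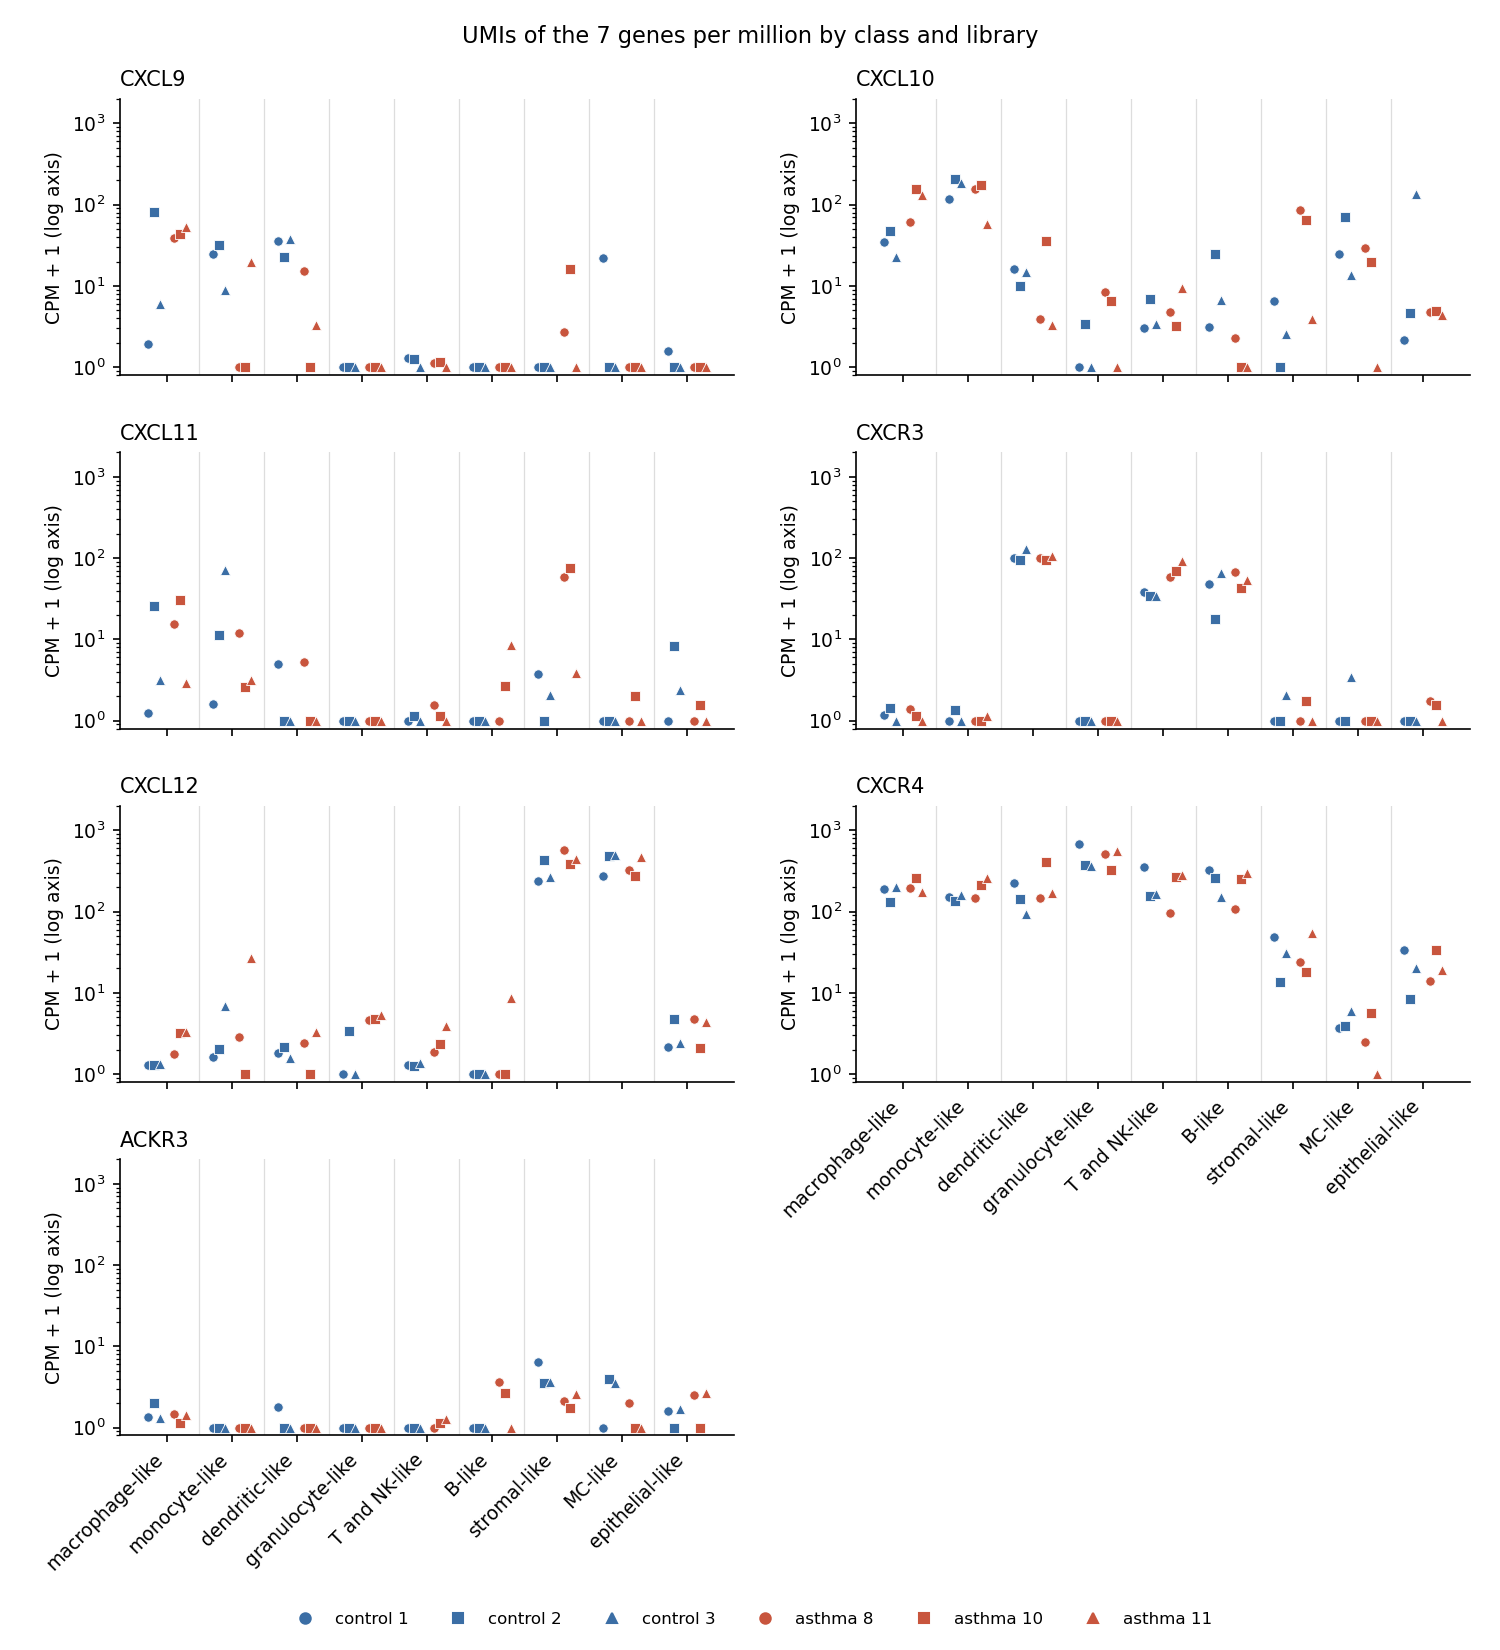
Level of each of the 7 genes by cell class, in CPM + 1 on a log axis, with 1 point per library (controls and asthma in different colours). Dendritic-like, T and NK-like and B-like cells carried CXCR3, stromal-like and MC-like cells carried CXCL12, and CXCR4 was seen in every class with the lowest level in MC-like cells.

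To learn whether these genes differed between asthma and control lungs, UMIs were summed per library and cell type and the groups were compared by the quasi-likelihood test of edgeR, with p-values adjusted by Benjamini-Hochberg over all genes of the type. A gene counted as called with an adjusted p under 0.05 and a log2 fold change beyond 0.25 in size. In the 9 classes tested, 22 of the 63 gene and class pairs passed the filter on low counts, and 0 were called. At an unadjusted p under 0.05 there were 4, namely CXCR3 in T and NK-like and CXCL10 in macrophage-like cells with higher values in asthma, and CXCL9 in dendritic-like and CXCL11 in monocyte-like cells with lower values, and the smallest adjusted p was 0.392. DESeq2 called 2, the first pair. Against this background, edgeR called 0% of all genes tested in T and NK-like, dendritic-like, epithelial-like, granulocyte-like and macrophage-like cells, 0.0159% in B-like, 0.0201% in MC-like, 0.0401% in monocyte-like and 1.95% in stromal-like cells, and DESeq2 called 0.904% over the classes together. In 2 pairs every asthma library lay above every control and in 1 pair every asthma library lay below, where 10.9% and 3.74% of all gene and class pairs did so.

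In the 27 subtypes tested, 47 of 189 pairs passed the filter and 0 were called, with a smallest adjusted p of 0.288, 13 at an unadjusted p under 0.05 (7 higher and 6 lower in asthma) and 0 by DESeq2, while edgeR called 0.0417% of all gene and subtype pairs. No share of all pairs at this unadjusted p is given for classes or subtypes, so these counts are not read as a difference. The groups did not overlap in 9 pairs with higher values in asthma and in 1 with lower values, beside 9.9% and 5.3% of all gene and subtype pairs. Among libraries with at least 10 cells of the subtype, the 9 were CXCR3 in CD4 T-like, NK-like, regulatory T-like and plasmacytoid DC-like cells and the sub-cluster led by ZBTB16, CXCL12 in fibroblast-like cells, CXCL10 in the macrophage-like sub-cluster led by IDO1, and CXCR4 in nonclassical monocyte-like cells and the stromal-like sub-cluster led by SOSTDC1. Asthma 8 had too few regulatory T-like cells to enter. Plasmacytoid DC-like values came from controls 1 and 3 (116.3 and 135.1 CPM) and asthma 8 and 10 (138.8 and 201.2 CPM). Those of the SOSTDC1 sub-cluster came from controls 1 and 3 (80.15 and 117.4 CPM) and asthma 8 and 11 (134.6 and 182.3 CPM). With fewer libraries, groups lie apart more readily. Summed over all cells, 7 of 7 genes passed the filter and 0 were called by edgeR or by DESeq2, with 1 at an unadjusted p under 0.05 (CXCL12) and 0.0839% of all genes called. Since libraries differ in their makeup of cell types, a level summed over all cells cannot tell more cells of a type from more RNA per cell.

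CXCL9 was counted in few cells. In all, 2672 UMIs fell in 168 cells, and 70.2% of these UMIs were in macrophage-like cells, where 88 cells (2.87%) had a UMI. The mean level was 36.6 ± 29.95 CPM in macrophage-like cells (n = 6), 18.4 ± 15.8 CPM in dendritic-like cells and 13.6 ± 12.9 CPM in monocyte-like cells, and these neighbours did not differ beyond their SD. No UMI was seen in 873 B-like cells, which allows a share of cells with a UMI of up to 0.344%. In monocyte-like cells, where only 10 cells carried it, CXCL9 was at 24.0, 30.8 and 7.87 CPM in controls and at 0, 0 and 18.7 CPM in asthma libraries, with overlap (log2 difference -1.13 ± 0.76, edgeR adjusted p = 0.788).

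In macrophage-like cells CXCL9 was at 0.9403, 80.8 and 5.08 CPM in controls 1, 2 and 3 and at 38.5, 42.7 and 51.6 CPM in asthma 8, 10 and 11. Control 2 was the highest of all, so the groups overlapped. The highest cell held 6, 239 and 30 UMIs in controls 1, 2 and 3 and 135, 109 and 173 UMIs in asthma 8, 10 and 11. With the highest cell of each library left out the levels were 0.589, 46.5 and 0.164 CPM in controls and 25.9, 35.1 and 15.2 CPM in asthma libraries, with control 2 still the highest. The log2 difference was 0.48 ± 1.22 (SE, edgeR adjusted p = 0.986).

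In dendritic-like cells CXCL9 was at 34.8, 21.6 and 37.1 CPM in the controls and at 14.4, 0 and 2.32 CPM in the asthma libraries. All 3 controls were above all 3 asthma libraries, as for 4.32% of the genes tested in this class in that direction. The log2 difference was -2.14 ± 0.56 (SE, edgeR unadjusted p = 0.00315, adjusted p = 0.550), and it was -4.44 without asthma 8 and between -2.31 and -1.80 with any other library left out. CXCL9 passed the filter on low counts through the controls, with 43, 19 and 128 UMIs beside 10 in asthma 8. The p-value therefore supports no difference. The values rested on 34 cells, and a single cell of control 3 held 83 UMIs. With the highest cell of each library left out, the level was 20.4, 10.5 and 13.1 CPM in controls and 8.84, 0 and 0 CPM in asthma. The share of cells with a UMI was 5.88%, 7.69% and 6.38% in controls and 12.5%, 0% and 2.56% in asthma libraries, which overlap. Within this class, cDC1-like cells, the dendritic cells that present antigen to CD8 T cells, carried 37.7 ± 20.3 CPM and had a UMI in 12.6% of cells. They numbered 30, 15 and 126 in controls and 14, 2 and 4 in asthma libraries, so the makeup of the class differed between the groups. CXCL9 was the first leading gene of a cDC1-like sub-cluster, although it was not among the genes clustered on. Without cDC1-like cells CXCL9 stood at 38.7, 1.79 and 12.6 CPM in controls and at 12.2, 0 and 2.64 CPM in asthma dendritic-like cells, and the groups overlapped. Macrophage markers summed to 220, 119 and 178 CPM in control and to 501, 963 and 137 CPM in asthma dendritic-like cells, and their part in the result was not tested.

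CXCL10 was counted at 8407 UMIs in 906 cells. Monocyte-like cells had the highest level, 148 ± 53.4 CPM (n = 6, 15.4% of cells with a UMI), which lay beyond the SD above macrophage-like cells at 74.8 ± 55.3 CPM (8.44% of cells). Nonclassical monocyte-like cells, named after the CD16-bearing patrolling monocytes on 3 of 5 markers, stood at 328.6 ± 247 CPM with a UMI in 26.0% of cells. For comparison, 0.641% of T and NK-like and 0.365% of granulocyte-like cells had a UMI, at median depths of 3659 and 1005 UMIs, beside 8135 UMIs in monocyte-like cells. In T and NK-like cells of control 2, 20 of 43 UMIs were in a single cell, and free RNA in droplets was not measured. Unnamed cells held 1283 of the CXCL10 UMIs. In epithelial-like cells control 3 stood out at 135.2 CPM, with 175 UMIs in a single cell, and the other libraries lay between 1.19 and 3.94 CPM.

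CXCL10 in macrophage-like cells was at 33.4, 46.5 and 21.5 CPM in controls and at 60.6, 156 and 130.5 CPM in asthma libraries. All asthma libraries were above all controls, as for 10.3% of all genes tested in this class in that direction. The log2 difference was 1.68 ± 0.43 (3.20-fold, edgeR unadjusted p = 0.00529, adjusted p = 0.855), whereas DESeq2 gave an adjusted p of 0.0143, the lowest over 12 alternatives that reached up to 0.9998. The sub-clusters of this class were filled unequally. That led by EREG held 511, 4 and 24 control and 2, 0 and 1 asthma cells, and that led by IFI27, an interferon-induced gene, held 3, 1 and 1 control and 6, 267 and 1 asthma cells. Alveolar macrophage-like cells numbered 7 in asthma 10 and between 123 and 362 in the other libraries. Without the EREG and IFI27 sub-clusters CXCL10 stood at 61.6, 46.4 and 23.4 CPM in controls and at 60.02, 256 and 128.3 CPM in asthma libraries, so asthma 8 lay below control 1 and the groups overlapped. Few cells made up much of the signal. The cell with the most CXCL10 held 308 of 569, 127 of 322 and 27 of 131 UMIs in controls 1, 2 and 3 and 147 of 646, 645 of 2242 and 540 of 620 UMIs in asthma 8, 10 and 11. Without these cells the levels were 15.4, 28.3 and 17.1 CPM in controls and 46.9, 111 and 16.9 CPM in asthma libraries, so asthma 11 lay among the controls and the groups overlapped (log2 difference 1.46, edgeR adjusted p = 0.950). The share of macrophage-like cells with a UMI was 3.81%, 9.19% and 5.02% in controls and 11.3%, 15.01% and 2.23% in asthma libraries, where asthma 11 was the lowest of all.

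**Figure D2:**
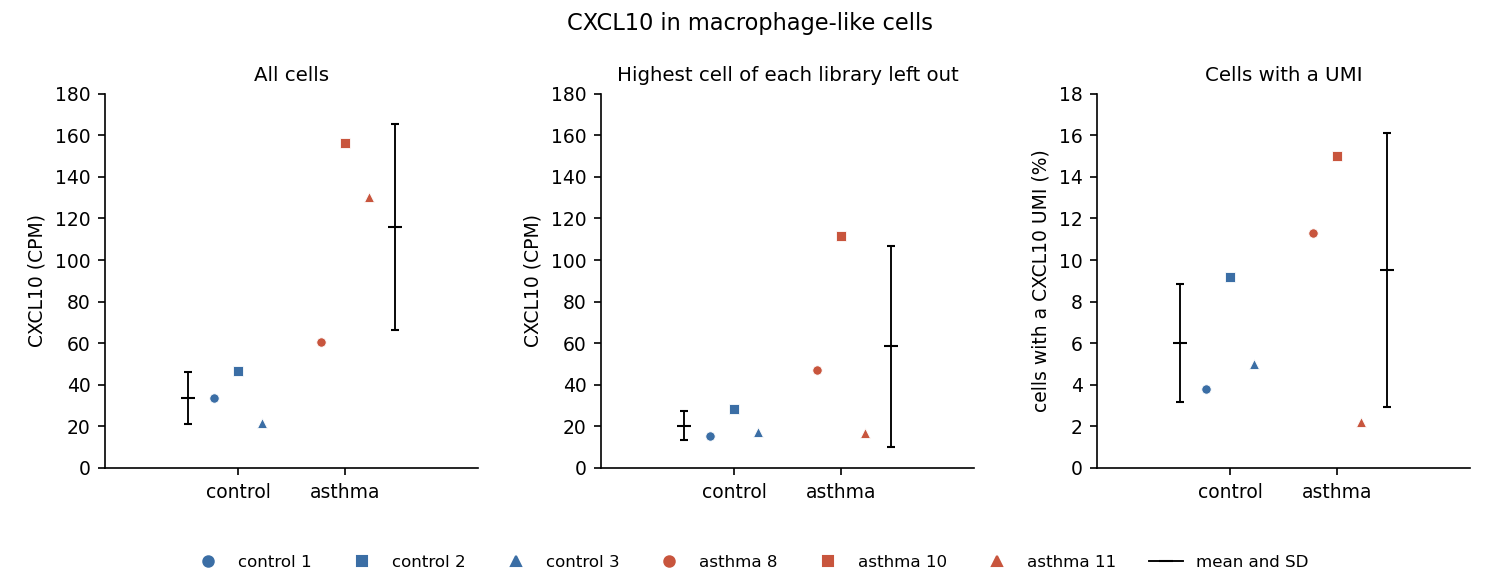
CXCL10 in macrophage-like cells by library, as CPM over all cells, as CPM with the highest cell of each library left out, and as percent of cells with a UMI, with 1 point per library. The asthma libraries at 60.6 to 156 CPM lie above the controls in the first panel, and asthma 11 joins the controls in the other panels.

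The macrophage-like sub-cluster led by IDO1, an enzyme of tryptophan breakdown that interferon-gamma induces, gave the largest log2 difference toward asthma among the 47 gene and subtype pairs tested. Its leading genes include CXCL10 and CXCL11, although neither was among the genes clustered on. CXCL10 stood there at 8.53, 66.3 and 5.55 CPM in controls and at 157, 408 and 808 CPM in asthma libraries (log2 difference 3.81 ± 0.81, edgeR adjusted p = 0.635, from 3.14 without asthma 11 to 5.84 without control 2). All asthma libraries were above all controls, but without the highest cell of each library the levels were 4.63, 19.5 and 1.90 CPM against 85.4, 223 and 18.2 CPM, and asthma 11 lay below control 2. A log2 difference larger in size pointed toward the controls, at -4.43 for CXCL11 in the monocyte-like sub-cluster led by APOBEC3A, described below.

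Monocyte-like cells gave overlapping values. Classical monocyte-like cells carried CXCL10 at 40.2, 65.6 and 68.3 CPM in controls and at 52.9, 34.1 and 12.99 CPM in asthma libraries, which overlap (log2 difference -1.22 ± 0.45, edgeR adjusted p = 0.969, from -1.84 without asthma 8 to -0.41 without asthma 11). This subtype joins sub-clusters filled by different libraries, since that led by OLFM1 held 337 cells of asthma 11 and at most 4 of any other library, and that led by CXCL3 held 105 cells of control 1 and at most 2 of any other. In the sub-cluster led by S100A9 CXCL10 stood at 3.59, 66.8 and 69.3 CPM in controls and at 54.9 and 35.9 CPM in asthma 8 and 10, with overlap, while asthma 11 had 7 cells there. CXCL10 was at 12.6 CPM in the OLFM1 sub-cluster of asthma 11 and at 54.4 CPM in the CXCL3 sub-cluster of control 1. In the monocyte-like class as a whole, the level was 115.8, 204 and 181.5 CPM in controls and 156.3, 173.1 and 57.3 CPM in asthma libraries, and of the asthma libraries only asthma 11 lay below all controls.

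CXCL11 was counted at 1488 UMIs in 160 cells, 52.2% of the UMIs in macrophage-like cells. The class means were 23.3 ± 33.9 CPM in stromal-like, 16.0 ± 26.9 CPM in monocyte-like and 12.15 ± 12.8 CPM in macrophage-like cells, each with an SD about as large as the mean or larger, so these classes have no order beyond their spread.

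In stromal-like cells CXCL11 was at 2.74, 0 and 1.06 CPM in controls and at 58.2, 74.7 and 2.88 CPM in asthma libraries. Asthma 8 and 10 were far above the controls, while asthma 11 was level with control 1. CXCL10 was at 5.48, 0 and 1.58 CPM in controls and at 85.4, 63.7 and 2.88 CPM in asthma libraries there. Asthma 8 and 10 were again above all controls, and asthma 11 lay below control 1. Neither gene passed the filter on low counts in this class in the 6 libraries, so neither was tested. The signal lay in 40 cells for CXCL11 and 27 cells for CXCL10, and the highest cell of asthma 10 held 79 of its 102 CXCL11 UMIs and 82 of its 87 CXCL10 UMIs.

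Capillary endothelial-like cells held 159 of the 218 stromal-like CXCL11 UMIs and 88 of the 254 CXCL10 UMIs, while 111 of the latter were in fibroblast-like cells, where asthma 8 stood at 154.1 CPM (37.3 CPM without its highest cell, which held 82 UMIs) and the other libraries at no more than 2.46 CPM. CXCL11 in capillary endothelial-like cells was at 98.3 ± 103.5 CPM over the libraries with at least 10 cells and a UMI in 6.82% of cells. The controls held 8, 13 and 6 such cells and the asthma libraries 104, 124 and 97, so that subtype was not tested. The sub-cluster led by SEMA3G, a gene of arterial endothelium, also had PLVAP and CD36 among its leading genes and was given no vessel name. It had 84, 69 and 192 cells in asthma libraries against 4, 0 and 6 in controls. CXCL11 stood there at 70.95 ± 96.4 CPM over the asthma libraries. Macrophage markers in stromal-like cells summed to 1149, 2841 and 964 CPM in controls and to 2973, 2459 and 3452 CPM in asthma libraries, and their part in these values was not tested. In capillary endothelial-like cells these 11 markers summed to 314 CPM on average, most of it APOE (196.5 CPM), and only MARCO and MSR1 were at 0. Monocyte markers there summed to 874 CPM on average, most of it LYZ (716 CPM), with none at 0.

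In monocyte-like cells CXCL11 was at 0.616, 10.4 and 70.1 CPM in controls and at 11.2, 1.603 and 2.17 CPM in asthma libraries. Control 3 alone stood far above the rest and the groups overlapped (log2 difference -2.78 ± 1.22, edgeR unadjusted p = 0.0463, adjusted p = 0.650). The log2 difference was -0.58 without control 3, -1.86 without asthma 11 and -3.71 without asthma 8. Only 16 cells carried a UMI. The sub-cluster led by APOBEC3A held 14, 43 and 29 control and 39, 9 and 204 asthma monocyte-like cells. Its first leading gene was CXCL9, which was not among the genes clustered on, so it is named after the next gene. CXCL11 stood there at 8.73, 60.8 and 517 CPM in controls and at 31.9 and 2.95 CPM in asthma 8 and 11. The log2 difference was -4.43 ± 1.26 (edgeR unadjusted p = 0.00489, not called), from -6.085 to -2.25 with a library left out. CXCL9 (-2.20), CXCL10 (-1.19) and CXCR4 (0.62) were not called there either, and the groups overlapped for all of these genes.

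Overlap between the ligands was read in macrophage-like cells. CXCL10 was seen in 67.2% of the 64 macrophage-like cells with CXCL11, compared with 7.19% of the 3004 without it, at median depths of 20358 and 19581 UMIs. It was also seen in 34.1% of the cells with CXCL9 and in 7.69% of those without. Of the 259 cells with CXCL10, 11.6% had CXCL9 and 16.6% had CXCL11, so most had neither other ligand counted. These shares join cells of all libraries and were not read within each. Asthma 10 alone held 31 of the 64 cells with CXCL11 and 119 of the 259 with CXCL10. In capillary endothelial-like cells CXCL12 was seen in 1 of 24 cells with CXCL11 (4.17%) and in 7.93% of those without it.

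CXCR3 was counted at 3308 UMIs in 2032 cells. T and NK-like cells held 59.3% of these UMIs, but the highest level was in dendritic-like cells at 103.7 ± 12.8 CPM, beyond the SD above T and NK-like cells at 53.3 ± 23.1 CPM and B-like cells at 48.2 ± 18.02 CPM, which did not differ beyond their SD. The other classes lay at or under 5.13 CPM. A UMI was present in 59.7% of dendritic-like cells (95% exact binomial interval 55.4% to 63.9%), in 13.3% of T and NK-like and in 16.5% of B-like cells. As background, 0.326% of the much deeper macrophage-like cells had a UMI, and 0 of 1645 granulocyte-like cells did, which allows up to 0.182%. After thinning each cell to 1000 UMIs, 8.79% of dendritic-like and 4.44% of T and NK-like cells kept a CXCR3 UMI, with 1 dendritic-like and 139 T and NK-like cells too shallow to enter. Intervals and limits of this kind cover counting error only.

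Within dendritic-like cells, cDC1-like cells carried 138.7 ± 19.1 CPM with a UMI in 83.8% of cells and plasmacytoid DC-like cells, the main producers of type I interferon, 147.9 ± 36.9 CPM. T and NK markers summed to 206 CPM in dendritic-like cells and to 92.4 CPM in cDC1-like cells, where CD2 was the most abundant. The level in dendritic-like cells was 98.7, 94.3 and 127.9 CPM in controls and 100.7, 93.6 and 106.9 CPM in asthma libraries. The groups overlapped over a narrow range (log2 difference -0.14 ± 0.19, edgeR adjusted p = 0.953).

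In T and NK-like cells CXCR3 was at 37.3, 33.2 and 33.6 CPM in controls and at 56.9, 68.2 and 90.6 CPM in asthma libraries. All asthma libraries were above all controls, as for 5.91% of the genes tested in this class in that direction. The log2 difference was 1.03 ± 0.20 (2.04-fold, edgeR unadjusted p = 0.000699, adjusted p = 0.392), and DESeq2 gave an adjusted p of 0.00495, the lowest over 12 alternatives that reached up to 0.770. Leaving out each library in turn gave log2 differences from 0.82 to 1.20. The signal was spread over many cells, with a UMI in 10.3%, 10.3% and 9.74% of control and in 13.9%, 16.2% and 22.9% of asthma cells. Thinned to 1000 UMIs, the shares were 3.44%, 2.14% and 2.54% in controls and 5.06%, 5.88% and 9.02% in asthma libraries, with 73 control and 66 asthma cells too shallow.

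T and NK-like cells were then read by subtype. CD4 T-like cells carried CXCR3 at 80.5, 92.7 and 86.2 CPM in controls and at 188, 131 and 153 CPM in asthma libraries, without overlap (log2 difference 0.78 ± 0.17, edgeR unadjusted p = 0.000494, adjusted p = 0.288). NK-like cells stood at 4.31, 6.06 and 5.29 CPM in controls and at 16.6, 10.8 and 11.5 CPM in asthma libraries, also without overlap (log2 difference 1.30 ± 0.34, edgeR adjusted p = 0.710). In NK-like cells CXCR3 passed the filter on low counts through the asthma libraries. Neither the p-value nor the lack of overlap therefore supports a difference there. CD8 T-like cells stood at 87.6, 22.9 and 37.7 CPM against 35.9, 80.2 and 126.7 CPM, and the groups overlapped (log2 difference 0.60 ± 0.52, edgeR adjusted p = 0.9999). This subtype joins sub-clusters filled unequally, with 24, 278 and 201 control and 567, 163 and 56 asthma cells in that led by NHSL2. The groups overlapped as well in the sub-cluster led by JCHAIN, at 46.8, 48.6 and 43.9 CPM against 82.3, 108.3 and 40.6 CPM, and in proliferating T and NK-like cells, at 26.0, 36.0 and 33.4 CPM against 54.1, 30.6 and 13.2 CPM, with asthma 11 the lowest in both. In the sub-cluster led by IFI27 they overlapped at 42.1, 17.8 and 23.8 CPM in controls and 32.8 and 34.5 CPM in asthma 8 and 10. The difference between these subtypes in their asthma effect was not tested. The NK-like subtype joins 3 sub-clusters filled unequally, with 776, 182 and 369 control and 106, 242 and 39 asthma cells in that led by FCER1G. Within that sub-cluster CXCR3 stood at 3.91, 9.41 and 5.32 CPM in controls and at 20.8, 6.35 and 26.6 CPM in asthma libraries, on 4 to 11 UMIs each, and the groups overlapped. In the sub-cluster led by HBB it stood at 10.1, 0 and 0 CPM in controls and at 16.3, 20.4 and 10.3 CPM in asthma libraries, on 10 UMIs or fewer each, without overlap but with control 1 close to asthma 11. In the sub-cluster led by RNU6ATAC no library held more than 3 CXCR3 UMIs and the groups overlapped.

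A sub-cluster led by ZBTB16, the transcription factor of innate-like T cells, stood at 46.8, 32.0 and 44.0 CPM in controls and at 86.6, 80.2 and 83.6 CPM in asthma libraries (edgeR adjusted p = 0.966), again without overlap. Regulatory T-like cells, marked by FOXP3, carried 140.9 ± 35.5 CPM. The subtypes were also unequally filled. There were 390, 200 and 180 CD4 T-like cells in controls and 212, 294 and 441 in asthma libraries, 268, 522 and 310 against 989, 807 and 134 CD8 T-like cells, and 932, 308 and 569 against 288, 375 and 345 NK-like cells, the subtype with the low CXCR3 level. The part of these shares in the difference of the whole class was not tested.

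**Figure D3:**
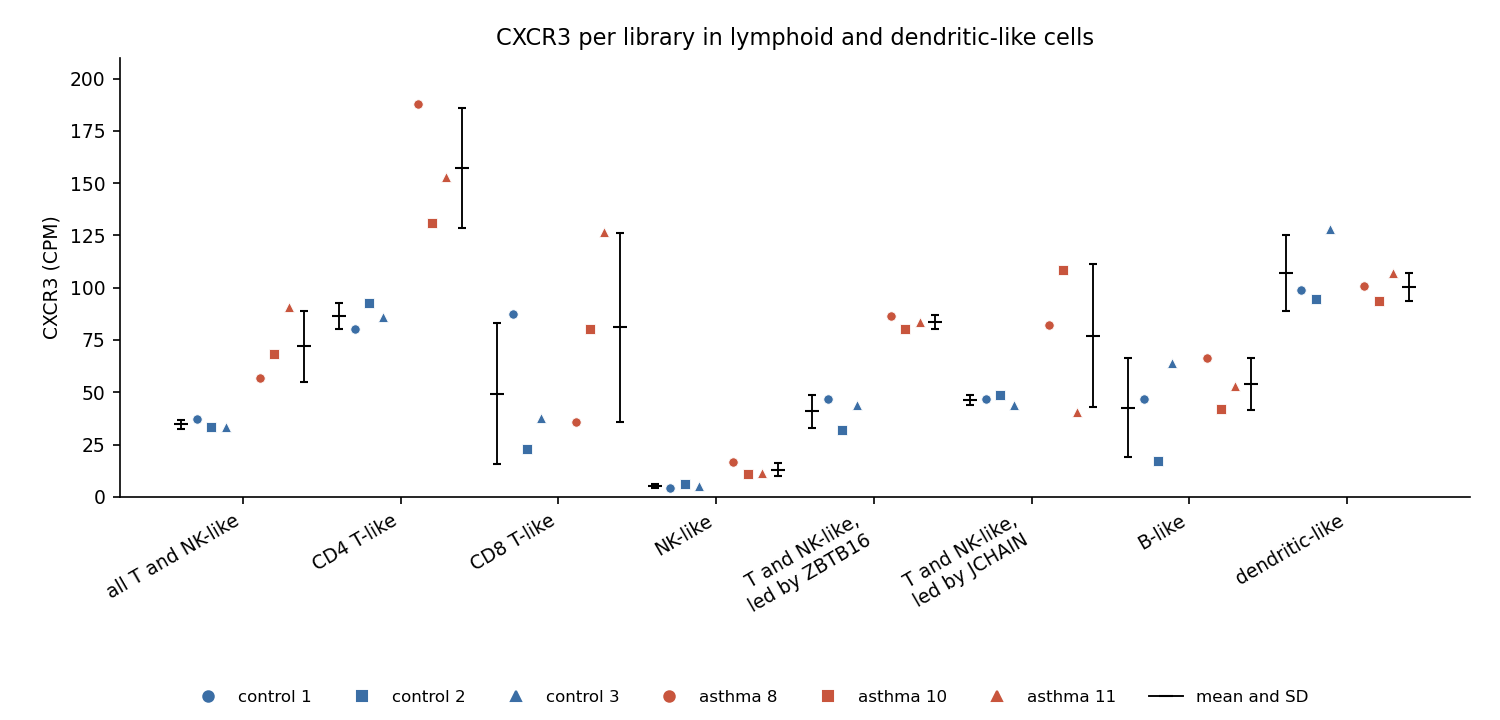
CXCR3 level in CPM by library in T and NK-like cells, their subtypes, B-like and dendritic-like cells, with points for libraries and bars for the mean and SD of the 3 libraries per group. The groups are apart in all T and NK-like, CD4 T-like and NK-like cells and the sub-cluster led by ZBTB16, and overlap in CD8 T-like, B-like and dendritic-like cells.

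In B-like cells CXCR3 was at 46.9, 17.0 and 64.0 CPM in controls and at 66.5, 41.8 and 53.1 CPM in asthma libraries, and the groups overlapped (log2 difference 0.29 ± 0.37, edgeR adjusted p = 0.967). A CXCR4 UMI was seen in 52.3% of T and NK-like cells with a CXCR3 UMI and in 32.4% of those without, but the subtypes differed. The shares were 58.7% and 56.2% in CD4 T-like, 50.4% and 30.9% in CD8 T-like and 37.7% and 18.5% in NK-like cells, and 41.2% and 53.7% in the sub-cluster led by ZBTB16. These shares join cells of all libraries, and the libraries differed in both genes. Within libraries the share was higher in cells with CXCR3 in 6 of 6 libraries for CD8 T-like cells, from 20.7% against 15.4% in asthma 8 to 81.5% against 70.6% in control 1, in 6 of 6 for NK-like cells, on 8 to 13 cells with CXCR3 each, and in 5 of 6 for CD4 T-like cells. In cDC1-like cells the pooled shares were 28.8% and 29.03%, and in pDC-like cells 94.3% and 85.7%.

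CXCL12 was counted at 7221 UMIs in 1864 cells. Stromal-like and MC-like cells shared the highest level, 388.7 ± 125 and 388.4 ± 108 CPM, and the next class, monocyte-like cells at 5.87 ± 9.99 CPM, lay beyond the SD below them. A UMI was present in 38.1% of stromal-like and 80.3% of MC-like cells. T and NK-like cells, at 0.306%, give the level in a class not known for CXCL12, at a median depth of 3659 UMIs. Macrophage-like cells had a UMI in 0.336%, 0.735% and 0.627% of control and in 1.15%, 2.65% and 4.09% of asthma cells, and interstitial macrophage-like cells of asthma 11 in 13.7%, beside at most 3.39% in the other libraries. CXCL12 was among the leading genes of an interstitial macrophage-like sub-cluster, which had 51 of its 68 cells in asthma 11.

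Among stromal-like cells, fibroblast-like cells carried 690.1 CPM on average with a UMI in 82.7% of cells. The sub-clusters led by ITGA8 and by SEMA3G carried 510 ± 120.5 and 497 ± 213 CPM, over the asthma libraries alone. The first had 0, 0 and 0 control cells and the second 4, 0 and 6. Capillary endothelial-like cells carried 39.5 ± 24.4 CPM, and 0 of 42 lymphatic endothelial-like cells had a UMI.

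In fibroblast-like cells CXCL12 was at 390.5, 552 and 430.1 CPM in controls and at 1048, 1145 and 575 CPM in asthma libraries. All asthma libraries were above all controls, asthma 11 by little. The subtype joins sub-clusters that the groups filled unequally, with 16, 29 and 38 control and 56, 42 and 234 asthma cells in that led by CCL11, and 28, 50 and 126 control and 22, 18 and 1 asthma cells in that led by RBP4. In the first CXCL12 stood at 953.8, 597 and 746 CPM in controls and at 1138, 1311 and 576 CPM in asthma libraries, where asthma 11 was the lowest of all and the groups overlapped. In the second it stood at 149, 528 and 343 CPM in controls and at 851 and 818 CPM in asthma 8 and 10, without overlap. For the subtype as a whole the log2 difference was 0.88 ± 0.31 (1.84-fold, edgeR unadjusted p = 0.0148, adjusted p = 0.3296, DESeq2 adjusted p = 0.341, 0.0650 to 0.641 over 12 alternatives). The libraries held 44, 79 and 164 control and 78, 60 and 235 asthma cells of this subtype, with a CXCL12 UMI in 61.4%, 84.8% and 80.5% of control and 92.3%, 96.7% and 80.9% of asthma cells. The 9 MC markers in fibroblast-like cells summed to 7.73, 29.5 and 7.64 CPM in controls and to 335.5, 88.3 and 41.8 CPM in asthma libraries. Every asthma sum was above every control sum, and only CALB2 was at 0. The part of these markers in the result was not tested.

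In larger-vessel endothelial-like cells CXCL12 was at 73.6, 105.5 and 103.2 CPM in controls and at 309, 93.1 and 1076 CPM in asthma libraries. Asthma 8 and 11 were above the controls and asthma 10 lay among them (log2 difference 2.33 ± 0.71, edgeR adjusted p = 0.795), and without asthma 11 the log2 difference was 1.06. This subtype joins sub-clusters that the libraries filled unequally. That led by TAC1, with 12 to 33 cells in each library, held at most 4 CXCL12 UMIs in any library. That led by GASK1B held 8, 2 and 67 control and 28, 12 and 13 asthma cells, with CXCL12 at 110.2 CPM in control 3, the only control with at least 10 cells there, and at 708, 322 and 4324 CPM in asthma 8, 10 and 11. The class as a whole stood at 237, 431 and 267 CPM in controls and at 578, 381 and 439 CPM in asthma libraries, and the groups overlapped (log2 difference 0.32 ± 0.29, edgeR adjusted p = 0.596). In MC-like cells it stood at 274, 487 and 503 CPM in controls and at 327, 274 and 465 CPM in asthma libraries, with overlap as well (log2 difference -0.34 ± 0.28, edgeR adjusted p = 0.999).

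**Figure D4:**
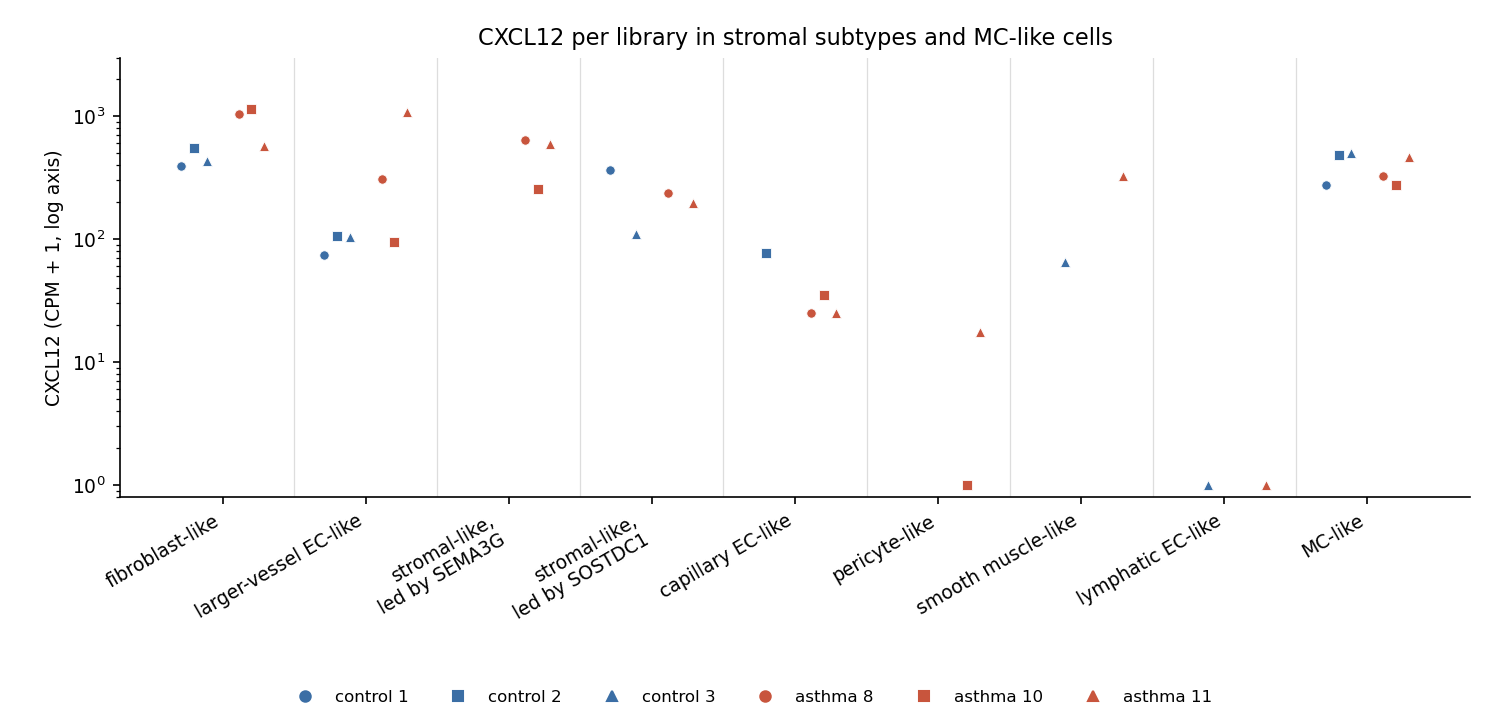
CXCL12 level in CPM + 1 on a log axis by library in stromal-like subtypes and MC-like cells, for libraries with at least 10 cells of the type. Fibroblast-like cells lie between 390.5 and 1145 CPM, asthma above control, and lymphatic endothelial-like cells at 0.

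Summed over all cells, CXCL12 was at 9.36, 27.1 and 33.5 CPM in controls and at 73.4, 38.1 and 73.5 CPM in asthma libraries. All asthma libraries were above all controls, asthma 10 by little (log2 difference 1.27 ± 0.44, edgeR unadjusted p = 0.0250, adjusted p = 0.316, DESeq2 adjusted p = 0.0746, the lowest over 11 alternatives that reached up to 0.5395). The shares of stromal-like cells given above, and of MC-like cells at 0.668%, 1.31% and 1.13% of control and 4.11%, 4.004% and 0.669% of asthma cells, differ between these libraries, and their part in the result was not tested.

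Monocyte-like cells of asthma 11 had CXCL12 at 25.8 CPM, with 178 of the 193 UMIs of that class, while the other libraries lay between 0 and 5.90 CPM. The share of monocyte-like cells with a UMI was 14.8% in asthma 11 and at most 2.92% in the others. Stromal markers in monocyte-like cells summed to 434, 498 and 350 CPM in controls and to 675, 473 and 694 CPM in asthma 8, 10 and 11. Asthma 11 was thus the highest, and CXCL12 was at 1.86 CPM in asthma 8. PECAM1, which monocytes also carry, made up 357 of the mean of 521 CPM. Of the 13 stromal markers only the endothelial marker CLDN5 was at 0, and the part of stromal RNA in the result was not tested.

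CXCR4 was counted at 30762 UMIs in 9661 cells. Granulocyte-like cells had the highest level, 466.5 ± 139.6 CPM, beyond the SD above the next class. B-like (230.6 ± 83.8 CPM), T and NK-like (219 ± 96.8), dendritic-like (196.3 ± 111), macrophage-like (190.2 ± 40.8) and monocyte-like cells (176.5 ± 48.4) followed with neighbours that did not differ beyond their SD. Stromal-like cells at 30.5 ± 16.6 CPM, epithelial-like cells at 20.6 ± 10.5 CPM and MC-like cells at 2.80 ± 1.89 CPM were low.

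The share of cells with a UMI gives another order at unequal depths. It was 81.3% in macrophage-like and 27.9% in granulocyte-like cells, but 17.5% and 25.5% after thinning to 1000 UMIs. Of the granulocyte-like cells, 290 of 636 control and 514 of 1009 asthma cells were too shallow for this thinning. Among subtypes, plasmacytoid DC-like cells carried 673 ± 281 CPM and regulatory T-like cells 419.5 CPM.

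In T and NK-like cells CXCR4 was at 354, 153 and 164 CPM in controls and at 95.2, 269 and 279 CPM in asthma libraries. Control 1 was the highest and asthma 8 the lowest, and the groups overlapped (log2 difference -0.09 ± 0.47, edgeR adjusted p = 0.992). Granulocyte-like cells stood at 682, 375 and 358 CPM in controls and at 508, 320.5 and 556 CPM in asthma libraries, likewise with overlap (log2 difference -0.03 ± 0.29, edgeR adjusted p = 0.998). Immediate-early and dissociation genes, which respond to the taking apart of tissue, summed in T and NK-like cells to 9545, 8472 and 9695 CPM in controls and to 8539, 10728 and 5106 CPM in asthma libraries, and their part in the CXCR4 level was not tested.

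Nonclassical monocyte-like cells carried CXCR4 at 30.3, 21.5 and 13.6 CPM in controls and at 31.9, 45.8 and 64.4 CPM in asthma libraries. The subtype joins a sub-cluster led by PADI4, with 226 cells in asthma 11 and at most 7 in any other library, and a sub-cluster led by HBB, where CXCR4 stood at 30.5, 21.8 and 14.0 CPM in controls and at 20.5, 46.2 and 79.1 CPM in asthma libraries on 2 to 18 UMIs each, with overlap. In the whole subtype the groups did not overlap, although control 1 and asthma 8 were close (log2 difference 1.12 ± 0.36, edgeR unadjusted p = 0.00826, adjusted p = 0.736). In the T and NK-like sub-cluster led by JCHAIN the level was 526, 205 and 222 CPM in controls and 86.0, 234 and 196 CPM in asthma libraries, and the groups overlapped (log2 difference -0.92 ± 0.38, edgeR adjusted p = 0.792).

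ACKR3 was barely detected, with 64 UMIs in 63 cells. Macrophage-like cells held 24 UMIs and stromal-like cells 19, the latter at 2.35 ± 1.71 CPM, and larger-vessel endothelial-like cells 9 UMIs at 7.31 ± 7.33 CPM. None was seen in 1770 monocyte-like cells, which allows a share of up to 0.169%. The gene passed the filter on low counts in no class and no subtype, so a difference between the groups was not detectable at this depth outside the sum over all cells (log2 difference -0.27 ± 0.50, edgeR adjusted p = 0.860).

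Other genes of the axes were read from 7 lists with 106 genes, 99 of which have a symbol in the gene list. They gave 583 tests over the classes, and 3 were called, all in stromal-like cells. They were 3 of the 74 list tests in that class (4.05%), where 1.95% of all genes tested were called. OAS2, an interferon-induced sensor of double-stranded RNA, rose from 19.2, 12.5 and 12.1 CPM in controls to 59.9, 76.9 and 39.0 CPM in asthma libraries (log2 difference 1.79 ± 0.33, edgeR adjusted p = 0.0395). FKBP5, a co-chaperone of the glucocorticoid receptor induced by glucocorticoids, rose from 8.22, 7.49 and 10.0 CPM to 22.6, 32.9 and 34.5 CPM (log2 difference 1.51 ± 0.28, edgeR adjusted p = 0.0394). DPP4 fell from 10.96, 19.97 and 25.3 CPM to 6.79, 7.32 and 6.40 CPM (log2 difference -1.77 ± 0.35, edgeR adjusted p = 0.0447). The groups did not overlap for these genes, which the test had already called, and 27.3% of all genes tested in this class had every asthma library above every control and 4.18% had every asthma library below. OAS2 is of the type I interferon list, FKBP5 of the inducers and retention partners of CXCR4, and DPP4 of the other ligands, co-receptors and breakdown genes. The lists of the interferon-gamma route, of type 1 and cytotoxic lymphocyte genes, of signalling and of immediate-early genes gave 0 calls in every class. The stromal-like class itself shifted in makeup, with 8, 13 and 6 control and 104, 124 and 97 asthma capillary endothelial-like cells, and the part of this in the 3 calls was not tested. DESeq2 called 12 of the 583 list tests, these 3 among them, beside 0.904% of all gene and class pairs. Of the fits that left out a library, edgeR called OAS2 only without asthma 11, DPP4 only without control 1 and FKBP5 in none, and no list gene was called without control 3 or without asthma 8. With doublets removed DPP4 was not called, and at a mitochondrial maximum of 10% only FKBP5 was.

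The interferon lists were described by their counts. Of 14 type I interferon-stimulated genes tested in macrophage-like cells, 14 had a log2 difference over 0, with a median of 1.13, beside 51.0% and a median of 0.01 among all genes of the class, and 0 were called. Their summed level was 483, 538 and 627 CPM in controls and 699, 2337 and 463 CPM in asthma libraries, so asthma 10 stood far above the rest and asthma 11 was the lowest. In stromal-like cells 13 of 14 had a log2 difference over 0, with a median of 0.54, beside 50.7% and a median of 0.01 among all genes of the class, and OAS2 was called. Their summed level there was 953.5, 473.1 and 613.2 CPM in controls and 1621, 994.7 and 1003.5 CPM in asthma libraries, without overlap. Most of the list lay below 0 in other classes, with 4 of 13 genes over 0 in T and NK-like cells (median -0.16), 3 of 10 in B-like cells (median -0.27), 3 of 8 in granulocyte-like cells (median -0.31), 3 of 7 in epithelial-like cells (median -0.22) and 3 of 7 in dendritic-like cells (median -0.13). In monocyte-like cells 6 of 12 lay over 0 (median 0.11) and in MC-like cells 3 of 3 (median 0.13). Of the genes of the interferon-gamma route to the CXCR3 ligands, 11 of 13 in stromal-like and 12 of 15 in macrophage-like cells had a log2 difference over 0, with medians of 0.52 and 0.18. By edgeR 0 of them were called. DESeq2 called 2 in stromal-like and 1 in macrophage-like cells, beside 0.904% of all gene and class pairs over the classes together. The summed level in macrophage-like cells was 1042, 1231 and 1105 CPM in controls and 1466, 1814 and 915 CPM in asthma libraries, so asthma 11 was the lowest of all. In stromal-like cells it was 990.5, 725.3 and 801.6 CPM in controls and 1579, 1574 and 1081 CPM in asthma libraries. Every asthma library was above every control there, as for 27.3% of all genes tested in that class. In the other classes the count over 0 was 6 of 14 in T and NK-like (median -0.12), 5 of 11 in B-like, 5 of 10 in granulocyte-like, 5 of 10 in epithelial-like, 5 of 8 in MC-like, 8 of 12 in dendritic-like and 8 of 12 in monocyte-like cells. Immediate-early and dissociation genes lay below 0 in several classes, with 0 of 14 over 0 in macrophage-like cells (median -0.42), 0 of 14 in epithelial-like cells (median -0.94), 0 of 13 in B-like cells (median -0.42) and 2 of 14 in stromal-like cells (median -0.44), and edgeR called 0 in any class. Between 4 and 7 genes lay over 0 in each of the other classes. Their summed level in macrophage-like cells overlapped between the groups, at 11013, 7286 and 10756 CPM in controls and at 8504, 11263 and 4214 CPM in asthma libraries, where asthma 10 was the highest and asthma 11 the lowest.

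The list genes with the smallest p in a class were read next where none was called. In T and NK-like cells DPP4, known there as the costimulator CD26, stood at 15.4, 23.7 and 16.5 CPM in controls and at 32.8, 41.2 and 71.2 CPM in asthma libraries (log2 difference 1.36, edgeR adjusted p = 0.392). CXCR6, the receptor of tissue-resident T cells for CXCL16, stood at 10.4, 11.1 and 10.6 CPM against 17.4, 35.2 and 25.5 CPM (log2 difference 1.27, edgeR adjusted p = 0.392). EOMES, a transcription factor of cytotoxic lymphocytes, stood at 135, 84.1 and 146 CPM against 77.3, 66.3 and 51.5 CPM (log2 difference -0.93, edgeR adjusted p = 0.395). None of these groups overlapped, in genes picked for their small p, while 5.91% of all genes tested in this class had every asthma library above every control and 4.58% had every asthma library below. DESeq2 called all 3 (adjusted p = 0.00758, 0.0124 and 0.0145), and 0.727% of all genes of the class.

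In macrophage-like cells GBP2, an interferon-induced GTPase, stood at 6.70, 2.17 and 5.74 CPM in controls and at 29.0, 24.2 and 12.8 CPM in asthma libraries (log2 difference 2.07, edgeR adjusted p = 0.855, DESeq2 adjusted p = 0.00171). FKBP5 stood there at 17.4, 7.94 and 14.9 CPM against 23.6, 24.9 and 33.3 CPM (log2 difference 0.92, edgeR adjusted p = 0.946). Both, picked for their small p, were without overlap, where 10.3% of all genes tested in this class had every asthma library above every control. IFIT1, an interferon-induced antiviral protein, stood at 10.6, 15.7 and 18.03 CPM against 42.1, 126 and 13.7 CPM (log2 difference 1.99, edgeR adjusted p = 0.946), and asthma 11 lay among the controls.

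In dendritic-like cells IFNGR2, a chain of the interferon-gamma receptor, stood at 57.4, 46.6 and 51.2 CPM in controls and at 128, 169.8 and 99.9 CPM in asthma libraries (log2 difference 1.29, edgeR adjusted p = 0.257, DESeq2 adjusted p = 0.00665). ARRB2, an arrestin that uncouples chemokine receptors, stood at 41.3, 71.6 and 53.0 CPM against 97.8, 142 and 74.4 CPM (log2 difference 0.87, edgeR adjusted p = 0.575). PTK2B, a kinase downstream of chemokine receptors, stood at 4.85, 13.6 and 6.08 CPM against 24.5, 13.9 and 16.3 CPM (log2 difference 1.33, edgeR adjusted p = 0.592). In all 3 genes, picked for their small p, every asthma library was above every control, as for 8.09% of all genes tested in this class, with control 2 close to an asthma library for ARRB2 and PTK2B. DESeq2 called 0.25% of the genes of this class. Macrophage marker sums and cDC1-like cell numbers, given above for CXCL9, differ between these libraries, and their part here was not tested.

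In monocyte-like cells ACKR1, an atypical receptor that binds inflammatory chemokines, stood at 4.93, 6.93 and 6.55 CPM in controls and at 17.7, 12.8 and 15.9 CPM in asthma libraries (log2 difference 1.27, edgeR adjusted p = 0.4003). ACKR1 is also among the leading genes of the larger-vessel endothelial-like sub-cluster led by TAC1. Stromal marker sums of these libraries are given above for CXCL12, and their part here was not tested. VEGFA, an endothelial growth factor, stood at 114.6, 56.5 and 88.5 CPM against 51.2, 20.8 and 49.0 CPM (log2 difference -1.07, edgeR adjusted p = 0.505). CD69, an early activation antigen that retains lymphocytes in tissue, stood at 88.1, 64.1 and 81.9 CPM against 56.8, 25.7 and 13.5 CPM (log2 difference -1.51, edgeR adjusted p = 0.511). The groups did not overlap for these 3 genes, which were picked for their small p. Of all genes tested in this class, 9.38% had every asthma library above every control and 4.05% had every asthma library below. Genes of CXCR3 and CXCR4 signalling and desensitization gave 0 calls in every class by DESeq2 as well.

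Genes whose level followed each member most closely over the 53 classes and subtypes were found by Pearson correlation of log2(mean CPM + 10), which describes these libraries only, since all types come from the same 6 libraries and classes contain their subtypes. CXCL9 was nearest to CCL8 (r = 0.81), CLEC10A (0.80) and SLAMF8 (0.78), all known from macrophages or dendritic cells. CXCL10 was nearest to AZU1 (0.74) and SLC31A1 (0.72), and CXCL11 to CLEC1A (0.71), NOTCH4 (0.67) and ESM1 (0.66), known from endothelium. CXCR3 was nearest to ITGB7 (0.83), SEPTIN1 (0.82) and RGS1 (0.82), CXCL12 to HOXA3 (0.93), GPX8 (0.92) and MGP (0.92), and CXCR4 to GMIP (0.87), BIN2 (0.87) and the leukocyte gene PTPRC (0.87). Between members, r was 0.63 for CXCL10 and CXCL11, 0.61 for CXCL9 and CXCL10, 0.58 for CXCL9 and CXCL11, and 0.47 for CXCR3 and CXCR4, while it was -0.62 for CXCL12 and CXCR4, -0.40 for CXCR3 and CXCL12 and -0.34 for CXCR3 and CXCL10. ACKR3, with its few UMIs, was nearest to C6 (0.76), RSPO3 (0.76) and PCSK2 (0.74).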

How the data were processed

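UMI counts as the authors deposited them, per gene and barcode and without normalization, were used for 6 libraries. The authors had mapped reads to macFas6 in Cell Ranger, for which the sources name different versions. The study's thresholds were applied (over 500 and under 5000 genes, 500 UMIs or more, and no more than 25% mitochondrial UMIs, here from 37 genes). Counts were scaled to 10000 per cell, and 2000 variable genes without the 7 members were reduced to 10 principal components and clustered with leidenalg 0.10.2 at resolution 0.8 on a graph of 20 shared nearest neighbours (scanpy 1.11.5, Python 3.11.15). Clusters were re-clustered within classes and named from marker lists, with at least 3 markers, and thresholds for naming were set after the clusters had been seen. Sub-clusters with mixed markers were taken out of their class and counted as unnamed. Their share of the class before this step in control and asthma libraries was 60.07% and 30.16% for MC, 23.87% and 13.02% for monocyte, 19.19% and 19.57% for B, 16.54% and 18.48% for macrophage, 10.19% and 9.349% for stromal, 7.253% and 3.39% for dendritic and 0% and 0% for T and NK. Doublets, taken as the 793 cells with the highest Scrublet scores, were kept, and 557 of them lay in mixed sub-clusters or unnamed cells. Counts were summed per library and type (at least 10 cells in a library and at least 2 libraries per group) and tested with edgeR 4.0.16 (R 4.3.3, TMM, filterByExpr), and with DESeq2 1.42.0 as an alternative. UMIs in these sums range from 94864 in granulocyte-like cells of control 3 to 17016316 in macrophage-like cells of control 1, so levels of shallow classes are less precise. Other alternatives were a mitochondrial maximum of 10%, a resolution of 1.6, removal of doublets, no filter on low counts, each library left out in turn, and, added after seeing the data, the highest cell of each library left out and readings within sub-clusters or without them, and shares of cells with both receptors within each library. The p-values weigh the difference between the groups against the spread between libraries. With 1 library per monkey, differences between animals and between preparations cannot be told apart in that spread. The text names the 7 members (though not in every type tested), list genes that were called or, where none was, those of smallest p in a class that is described, the 3 genes nearest to each member in correlation (at least 20 CPM in some type), and the most abundant marker of a type. Some genes chosen by these rules are not reported here. The members and lists were chosen with earlier results of these data known. No sequence of the members is shown, and RefSeq was used only for gene names and neighbours, with 6 of 7 members matched by symbol.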

Additional observations from a re-analysis of the deposited data

Results flagged for a closer look

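CXCL12 was flagged because its log2 differences had opposite signs in a pair of subtypes, neither of them called. Every asthma library was above every control in fibroblast-like cells (log2 difference 0.88, edgeR adjusted p = 0.3296). Every asthma library was below every control in the MC-like sub-cluster led by GHV (log2 difference -0.46, edgeR unadjusted p = 0.1485, adjusted p = 0.988). Of all gene and subtype pairs, 9.9% and 5.3% were without overlap in these directions. In the sub-cluster led by GHV, controls 2 and 3 stood at 462.8 and 463.5 CPM, control 1 had too few cells to enter, and asthma 8, 10 and 11 stood at 376.9, 242.1 and 446.8 CPM. The difference between the subtypes was not tested. Within the fibroblast-like sub-cluster led by CCL11 the groups overlapped, and within that led by RBP4, which asthma 11 did not fill, they did not. Among the barcodes that the quality thresholds left out, which enter no comparison, CXCL12 averaged 67.4 CPM in asthma libraries (87.2, 81.1 and 33.9) and stood at 10.3, 9.87 and 27.6 CPM in controls. CXCL11 averaged 1.71 CPM in the left-out barcodes of asthma libraries (2.18, 1.86 and 1.10) and stood at 0, 0.928 and 0 CPM in controls.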

How the results depend on the processing

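No paired analysis was possible because the groups share no replicate numbers. The count of members called in classes, 0, became 2 with DESeq2, 8 of 57 tests with no filter on low counts (0.895% of all gene and class pairs were then called) and ranged from 0 to 2 when each library was left out. The 2, without asthma 11, were CXCL10 and CXCL11 in stromal-like cells, which passed the filter only once that low library was gone, through asthma 8 and 10, and support no difference. The count in subtypes, also 0, became 19 of 125 with no filter (0.544% of all gene and subtype pairs) and ranged from 0 to 1 when each library was left out. The 1, without control 1, was CXCL10 in club-like cells, where control 3 was then the only control (26 cells, 175 UMIs in its highest cell), below the minimum of 2 libraries a group, and it supports no difference. List genes called, 3 in all, became 1 at a mitochondrial maximum of 10%, 12 with DESeq2 and 42 with no filter. Of all gene and class pairs 0.242%, 0.904% and 0.895% were then called. The count of list genes ranged from 0 (without control 3 or without asthma 8) to 4 when each library was left out. Between 0.00431% and 0.548% of all gene and class pairs were called in those fits. Of 18 single member results, all 18 kept their side of the threshold with doublets removed, 16 of 18 with DESeq2 and 7 of 18 with no filter, as did all that had a value when a library was left out (15 to 18) or at a resolution of 1.6 (14). CXCL11 in monocyte-like cells turned from -2.78 to 1.35 (log2 difference) at a mitochondrial maximum of 10%, and the cause was not tested. The class with the highest share of cells with a UMI remained for 4 of 7 members after thinning to 1000 UMIs, and moved for CXCL11, CXCR4 and ACKR3. The class with the highest level of CXCL11 became monocyte-like at a mitochondrial maximum of 10%, at a resolution of 1.6 and with doublets removed, and that of CXCL12 became MC-like at 10%. With the highest cell of each library left out, CXCL9 in dendritic-like and CXCL11 in monocyte-like cells no longer passed the filter and have no value, and the other 8 results kept their side. An exact permutation test of 3 against 3 libraries cannot give a p below 0.1.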
